A study of Mus musculus with 6 samples.

Results

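VGLUT3 amacrine nuclei are a small set of retinal interneuron nuclei that carry RNA of Slc17a8, the gene for the vesicular glutamate transporter VGLUT3. They were chosen from single-nucleus RNA profiles by measured counts of unique molecular identifiers (UMIs, which count original RNA molecules). A barcode passed with at least 300 detected genes, no more than 5% mitochondrial UMIs, at least 2 Slc17a8 UMIs and at least 1 UMI of Slc6a9, Pax6, Tfap2a or Tfap2b. It could hold no UMI of Slc17a6 or Rbpms, both ganglion cell genes, and at most 1 UMI in all over Gad1, Gad2, Slc1a3, Lhx1, Trpm1, Grm6, Arr3 and Pde6c, which mark GABAergic, glial, horizontal, bipolar and cone cells. This gave 54 members of 55230 kept nuclei (62893 barcodes). The tissue was the retina of wild-type C57BL6/J mice that were 18 or 3 months old, with 3 libraries per age and no treatment named for either age. Members numbered 13, 16 and 10 in 18-month replicates 1, 2 and 3, against 6, 6 and 3 in the 3-month replicates. The labels do not say whether a library is 1 animal, so p-values measure the spread between these libraries, part of which may be technical.

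Amacrine cells are inhibitory interneurons of the inner retina. Most release GABA or glycine, loaded into vesicles by the transporter encoded by Slc32a1, and glycinergic cells take glycine up through GlyT1, encoded by Slc6a9. The VGLUT3 type is known in mouse retina for releasing both glutamate and glycine. Its dendrites lie in the middle of the inner plexiform layer, where it responds to local motion, excites some ganglion cell types and inhibits others.

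The members held 148400 UMIs together, and a member held between 559 and 9377 UMIs with a median of 2480. Summed UMIs were 46344, 44221 and 21610 in the 18-month libraries, against 13633, 10632 and 11960 in the 3-month libraries. Levels below are UMIs scaled to 1000000 UMIs of the same class in the same library (CPM), so 1 UMI is worth more where the sum is small. Both comparators came from the same libraries. The glycinergic one (315 nuclei) had at least 2 Slc6a9 UMIs, no Slc17a8 UMI and the same exclusions, and the GABAergic one (1010 nuclei) had at least 2 UMIs of Gad1 and Gad2 together and none of Slc17a8 or Slc6a9. Any 2 libraries shared 11 to 74 barcodes, at most 0.506% of the smaller one.

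The label was then set against its markers. Slc17a8, Slc6a9 and Pax6, with Tfap2a and Tfap2b, chose the nuclei and are described without a test. Slc17a8 had 192 UMIs in all, with 2 UMIs in 21 members, 3 in 14, 4 in 8, and 5 to 13 in the others. Of the 54 members, 38 had a UMI of Tfap2b, 32 of Pax6, 23 of Slc6a9 and 15 of Tfap2a. In 18 members only 1 of these 4 genes was found, in 21 members 2, in 12 members 3 and in 3 members all 4. Slc6a9, which defines the glycinergic identity of this type, therefore had no UMI in most members, and stood at 212 ± 164 CPM in VGLUT3 nuclei against 877 ± 215 CPM in the glycinergic comparator that it selected (SD, n = 6 libraries). An exclusion UMI was present in 25 members, of Slc1a3 in 10, Trpm1 in 7, Gad1 and Arr3 in 3 each and Gad2 in 2.

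Markers of other retinal cells were present at unlike levels. The rod list was the highest, with a sum of 4636 to 13796 CPM in VGLUT3 nuclei. It summed to 6084 to 14862 CPM in glycinergic nuclei and 3579 to 7388 CPM in GABAergic nuclei. The 10 amacrine markers summed to 920 to 2347 CPM in VGLUT3 nuclei, 1958 to 2863 CPM in glycinergic nuclei and 2873 to 3635 CPM in GABAergic nuclei. They include Slc6a9, Pax6, Tfap2a, Tfap2b, Gad1 and Gad2, which chose or excluded nuclei, so these sums partly follow from the rules. Of the 8 ganglion cell markers that the rule did not use, Pou4f2 and Isl2 were at 0 in all members, Pou4f1, Pou4f3, Nefm, Sncg and Thy1 had 1 to 4 UMIs each, and Nefl, for a neurofilament, had 20 UMIs in 16 members. The ganglion list summed to 94.1 to 370 CPM in VGLUT3 nuclei, 158 to 501 CPM in glycinergic nuclei and 205 to 524 CPM in GABAergic nuclei. Of the 7 starburst markers, Slc18a3 and Fezf1 were at 0 and Chat, Slc5a7, Megf10, Megf11 and Sox2 had 1 to 6 UMIs each. Their sum was 0 to 362 CPM in VGLUT3 nuclei, highest in 18-month replicate 2, 19.1 to 110 CPM in glycinergic nuclei and 35.7 to 412 CPM in GABAergic nuclei. A starburst marker UMI was found in 9 members, and 1 of these had 3 or more. Th, Slc6a3 and Ddc of the dopaminergic amacrine cells were at 0, and Slc18a2 had 2 UMIs. A count of 0 over all members allows up to 20.2 CPM. All 8 rod markers had UMIs, and every member had at least 3 rod marker UMIs. Rod marker RNA made up 0.464% to 0.675% of UMIs in VGLUT3 nuclei of the 18-month libraries, against 0.792% to 1.38% in those of the 3-month libraries. The 9 Müller glia markers, found in 49 members, summed to 740 to 2069 CPM in VGLUT3 nuclei, 413 to 1088 CPM in glycinergic nuclei and 470 to 1157 CPM in GABAergic nuclei. The 7 rod bipolar markers, found in 46 members, summed to 585 to 1153 CPM in VGLUT3 nuclei, 420 to 914 CPM in glycinergic nuclei and 520 to 972 CPM in GABAergic nuclei. The part of all these markers in the results was not tested.

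Free Slc17a8 RNA was gauged in rod-rich nuclei, which should lack the gene and were taken, by a limit set after seeing the data, as nuclei with at least 3% of UMIs in the 8 rod markers. At least 1 Slc17a8 UMI was found in 0 of 190, 9 of 1732 and 0 of 19 rod-rich nuclei of 18-month replicates 1, 2 and 3, and in 0 of 347, 6 of 2463 and 4 of 1462 of the 3-month replicates. The zeros allow shares of up to 1.58% and 15.8% in 18-month replicates 1 and 3 and 0.865% in 3-month replicate 1. A second UMI was found in 1 of these nuclei, and none passed the VGLUT3 rule. Their median depth was 754 to 959 UMIs per nucleus in the 6 libraries, lower than the 2480 of the members.

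Sdk2, the gene for the adhesion protein sidekick-2, which the rule did not use, was described on both sides of the Slc17a8 threshold. Sidekick-2 is known in mouse retina to join VGLUT3 amacrine cells to a ganglion cell type through contacts between like molecules. Of the 33 members with 3 or more Slc17a8 UMIs, 21 had an Sdk2 UMI (634 CPM). Of the 21 members with 2, just inside the limit, 8 had one (256 CPM). Of 134 nuclei with 1 Slc17a8 UMI that otherwise met the rule, just outside it, 20 had one (134 CPM). The libraries were not spread alike over these sets: the replicate 1 libraries of both ages gave 41 of the 57 Sdk2 UMIs at 3 or more Slc17a8 UMIs, but only 24 of the 134 nuclei just outside. In those 2 libraries alone the Sdk2 level was 1006, 521 and 349 CPM at 3 or more, 2 and 1 Slc17a8 UMIs. In the other 4 libraries it was 326, 127 and 80.7 CPM, in the same order, from 16, 5 and 16 UMIs. The order did not hold in every library: in 3-month replicate 2 alone the level was 127, 361 and 166 CPM, from 1, 1 and 4 UMIs.

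The first comparison asked how VGLUT3 nuclei differ from other glycinergic amacrine nuclei of the same retinas. Among the genes that passed the low-count filter the largest difference was in Nxph1, for neurexophilin-1, a secreted neuronal glycoprotein. It had 2201, 2103 and 879 CPM in VGLUT3 nuclei of 18-month replicates 1 to 3 and 3301, 2822 and 2592 CPM in those of 3-month replicates 1 to 3, against a lowest, median and highest value of 0, 33.1 and 122.6 CPM in glycinergic nuclei. The classes did not overlap, and 43 of 54 members had an Nxph1 UMI. The log2 difference was 5.78 (SE 0.42, edgeR adjusted p = 4.9e-07). With no low-count filter Plpp4 (5.80) and Col24a1 (5.36) stood above Nxph1 (5.28), with 3 and 2 UMIs in all glycinergic nuclei.

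Of 739 genes tested outside the rule, 126 (17.1%) passed an adjusted p of 0.05, 68 (9.2%) higher and 58 (7.85%) lower in VGLUT3 nuclei, and the median log2 difference of all genes tested was -0.10. Grin2a, for the GluN2A subunit of NMDA receptors, had 1446, 678 and 648 CPM in VGLUT3 nuclei of the 18-month libraries and 2054, 941 and 1421 CPM in those of the 3-month libraries, against 0 to 283 CPM in glycinergic nuclei (log2 difference 3.55, SE 0.43, adjusted p = 2.1e-05). Grid1, for the delta-type glutamate receptor GluD1, had a lowest, median and highest value of 417, 734 and 949 CPM in VGLUT3 nuclei, against 0, 68.8 and 134 CPM in glycinergic nuclei (log2 difference 3.54, SE 0.34, adjusted p = 2.7e-06). Neither gene overlapped between the classes. Khdrbs2, for an RNA-binding splicing regulator, varied little among VGLUT3 libraries, at 972 to 1254 CPM against 74.97 to 261 CPM in glycinergic nuclei.

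Other named genes were also higher in VGLUT3 than in glycinergic nuclei. The adhesion phosphatase gene Ptprm was higher by 4.36 on the log2 scale, the Notch coactivator Maml2 by 3.61, the GABA-A receptor subunit Gabra2 by 3.11, the sorting receptor Sorcs1 by 3.00, the protocadherin Pcdh7 by 2.87, the netrin receptor Unc5c by 2.82, Thsd7a, for a thrombospondin-domain protein, by 2.68, the glypican Gpc6 by 2.67, the cGMP-dependent kinase Prkg1 and the synaptic adhesion protein Il1rapl1 by 2.63 each and the potassium channel Kcnh5 by 2.54. Prkg1 was found in 51 of 54 members and averaged 6265 ± 2112 CPM in VGLUT3 nuclei and 978 ± 284 CPM in glycinergic nuclei (SD, n = 6 libraries).

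**Figure D1:**
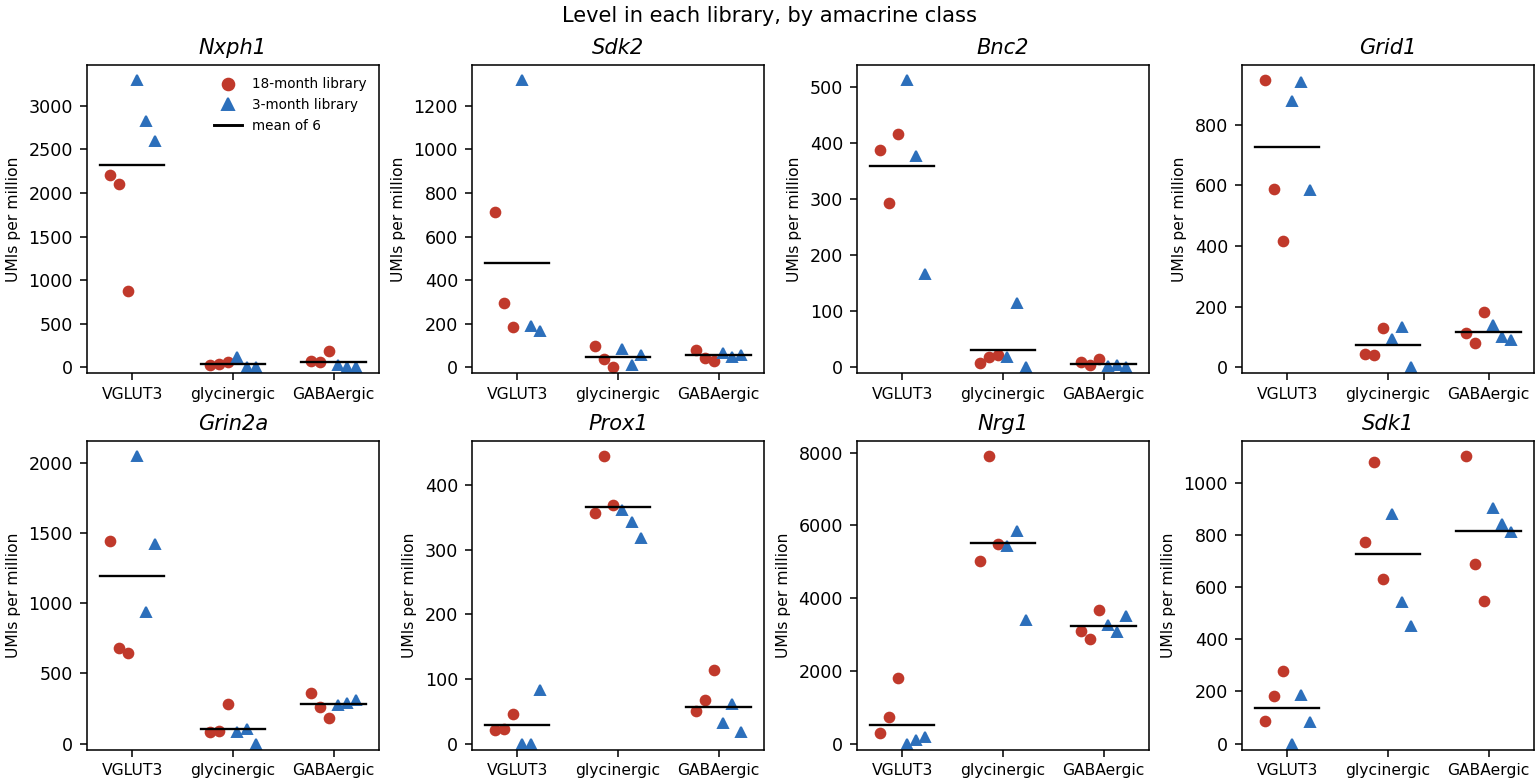
Level of 8 genes in each of the 6 libraries (vertical axis, CPM; circles 18-month, triangles 3-month, line the mean of 6) in VGLUT3, glycinergic and GABAergic nuclei. Nxph1, Bnc2, Grid1 and Grin2a do not overlap between VGLUT3 nuclei and either comparator, and Nrg1 and Sdk1 are lower in VGLUT3 nuclei than in every library of both comparators.

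The genes that were lower in VGLUT3 than in glycinergic nuclei included known markers of AII amacrine cells, the narrow-field glycinergic type of the rod pathway. Prox1, a transcription factor gene of AII cells, had 4 UMIs in the members and averaged 29.0 ± 31.8 CPM in VGLUT3 nuclei and 366 ± 43.0 CPM in glycinergic nuclei (log2 difference -3.79, SE 0.44, adjusted p = 1.4e-05). Dab1, for an adaptor of reelin signalling, differed by -3.20 and Nrg1, for the growth factor neuregulin-1, by -3.62. Nrg1 had 0, 224 and 1805 CPM as its lowest, median and highest value in VGLUT3 nuclei, against 3411, 5456 and 7916 CPM in glycinergic nuclei. The sodium channel gene Scn1a differed by -2.28, Cdh12 by -2.68, Sdk1 by -2.51 and Lgr5 by -2.15.

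The comparator itself was rich in AII marker RNA. The 6 AII markers summed to 334 to 1230 CPM in VGLUT3 nuclei, 2530 to 5502 CPM in glycinergic nuclei and 447 to 1482 CPM in GABAergic nuclei, and only 32 of the 315 glycinergic nuclei had no UMI of Prox1, Gjd2 or Dab1. In an alternative added after seeing the data, against these 32 nuclei alone, with 1 to 11 in a library, 106 genes could be tested and 34 were called. Of the 126 genes called before, 30 could be tested there, all 30 with the same sign, and 14 were called again. Nxph1 stood at a log2 difference of 4.81 in that fit, Khdrbs2 at 3.33, Sorcs1 at 2.53 and Prkg1 at 2.44.

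The second comparison set VGLUT3 against GABAergic amacrine nuclei. The clearest differences lay in genes that had almost no UMIs in the GABAergic class. Bnc2, for a zinc finger protein, had 388, 294 and 417 CPM in VGLUT3 nuclei of 18-month replicates 1 to 3 and 513, 376 and 167 CPM in those of the 3-month replicates, against 0 to 14.2 CPM in GABAergic nuclei (log2 difference 5.67, SE 0.41, edgeR adjusted p = 2.9e-14). Car3, for a carbonic anhydrase, had 216, 204 and 370 CPM in the 18-month and 147, 752 and 167 CPM in the 3-month VGLUT3 nuclei, against 0 to 4.72 CPM in GABAergic nuclei (log2 difference 6.71, SE 0.52). Plpp4, for a phospholipid phosphatase, had 92.5 to 587 CPM in VGLUT3 nuclei and 0 to 11.4 CPM in GABAergic nuclei (log2 difference 6.72, SE 0.53). None of these groups overlapped, and 32, 25 and 23 of the 54 members had a UMI of Bnc2, Car3 and Plpp4.

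Of 2785 genes tested, 246 (8.83%) passed, 75 (2.69%) higher and 171 (6.14%) lower in VGLUT3 nuclei, with a median log2 difference of -0.10 over all genes tested. The count was 162 in DESeq2 and 130 without 18-month replicate 1. Of the 10 genes of the VGLUT3 identity list outside the rule, 8 could be tested, 1 was higher (Sdk2) and 1 lower (Meis2), 7 of the 8 differences lay below 0, and the median was -0.62. Meis2, for a homeobox transcription factor, averaged 330 CPM in VGLUT3 nuclei and 1166 CPM in GABAergic nuclei, lower in 6 of 6 libraries (log2 difference -1.84, SE 0.34, adjusted p = 0.00014). Sdk2 had 712, 294 and 185 CPM in VGLUT3 nuclei of the 18-month libraries and 1320, 188 and 167 CPM in those of the 3-month libraries, against 28.3, 53.6 and 81.6 CPM as the lowest, median and highest value in GABAergic nuclei. Replicate 1 of each age was the highest of its age, yet all 6 VGLUT3 values lay above all GABAergic ones (log2 difference 2.93, SE 0.32, adjusted p = 3.6e-09). Against glycinergic nuclei Sdk2 stood below the low-count filter. There it averaged 478 ± 461 CPM in VGLUT3 nuclei and 47.7 ± 39.4 CPM in glycinergic nuclei (SD, n = 6 libraries), higher in 6 of 6 libraries. The exact paired permutation test gave a two-sided p of 0.03125, the smallest that 6 pairs allow, and 0.104 after adjustment over the 20 such tests of the identity list. With no low-count filter edgeR called Sdk2 there at 2.70 (SE 0.38, adjusted p = 3.3e-10). Of that list 4 genes could be tested in edgeR against glycinergic nuclei, and Celf4, for an RNA-binding protein, was called, higher by 0.75. Tfap2c, for a transcription factor and too low for edgeR there, averaged 7.37 CPM in VGLUT3 nuclei and 34.5 CPM in glycinergic nuclei, lower in 6 of 6 libraries (exact paired permutation p = 0.03125, adjusted 0.104).

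Nxph1 differed from GABAergic nuclei by 5.50 and Grid1 by 2.54, with no overlap. Other named genes that were higher in VGLUT3 than in GABAergic nuclei were Col24a1, for a collagen (log2 difference 4.20), Cdc7, for a kinase of DNA replication (3.57), Map3k5, for a stress-activated kinase (3.00), Trhde, for an enzyme that degrades thyrotropin-releasing hormone (2.93), the adhesion gene Igsf11 (2.73), the metalloprotease gene Adam12 (2.46), the receptor kinase gene Alk (2.44) and Shisa6, for an AMPA receptor partner (2.40). Gm14064, a gene model outside the naming rule that was picked after its values were seen, had 139 to 752 CPM in VGLUT3 nuclei and 26 of 54 members carried it, against 3 UMIs in all glycinergic and 2 in all GABAergic nuclei.

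Among genes that were lower in VGLUT3 than in GABAergic nuclei, Robo1, for a receptor of the Slit guidance proteins, had 86.3, 611 and 1481 CPM in VGLUT3 nuclei of the 18-month replicates and 73.4, 0 and 585 CPM in those of the 3-month replicates, against 1839 to 2889 CPM in GABAergic nuclei (log2 difference -2.72, SE 0.39, adjusted p = 2.3e-06). Sdk1, for sidekick-1, the relative of Sdk2, had 0 to 278 CPM in VGLUT3 nuclei, 450 to 1081 CPM in glycinergic nuclei and 547 to 1105 CPM in GABAergic nuclei. It was thus lower than in both comparators without overlap, and it differed from GABAergic nuclei by -2.62 (SE 0.37, adjusted p = 2.2e-06). Nrg1 differed by -2.99, the muscarinic receptor gene Chrm3 by -2.53, the calcium channel subunit gene Cacna2d2 by -2.51 and the heparan sulphate enzyme gene Hs6st3 by -2.44. Il1rapl2, Caln1, Kif26b, Ryr3, Plcxd3, Plxna4 and Dach2 were also called lower, but had a UMI in only 1 to 3 members each.

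**Figure D2:**
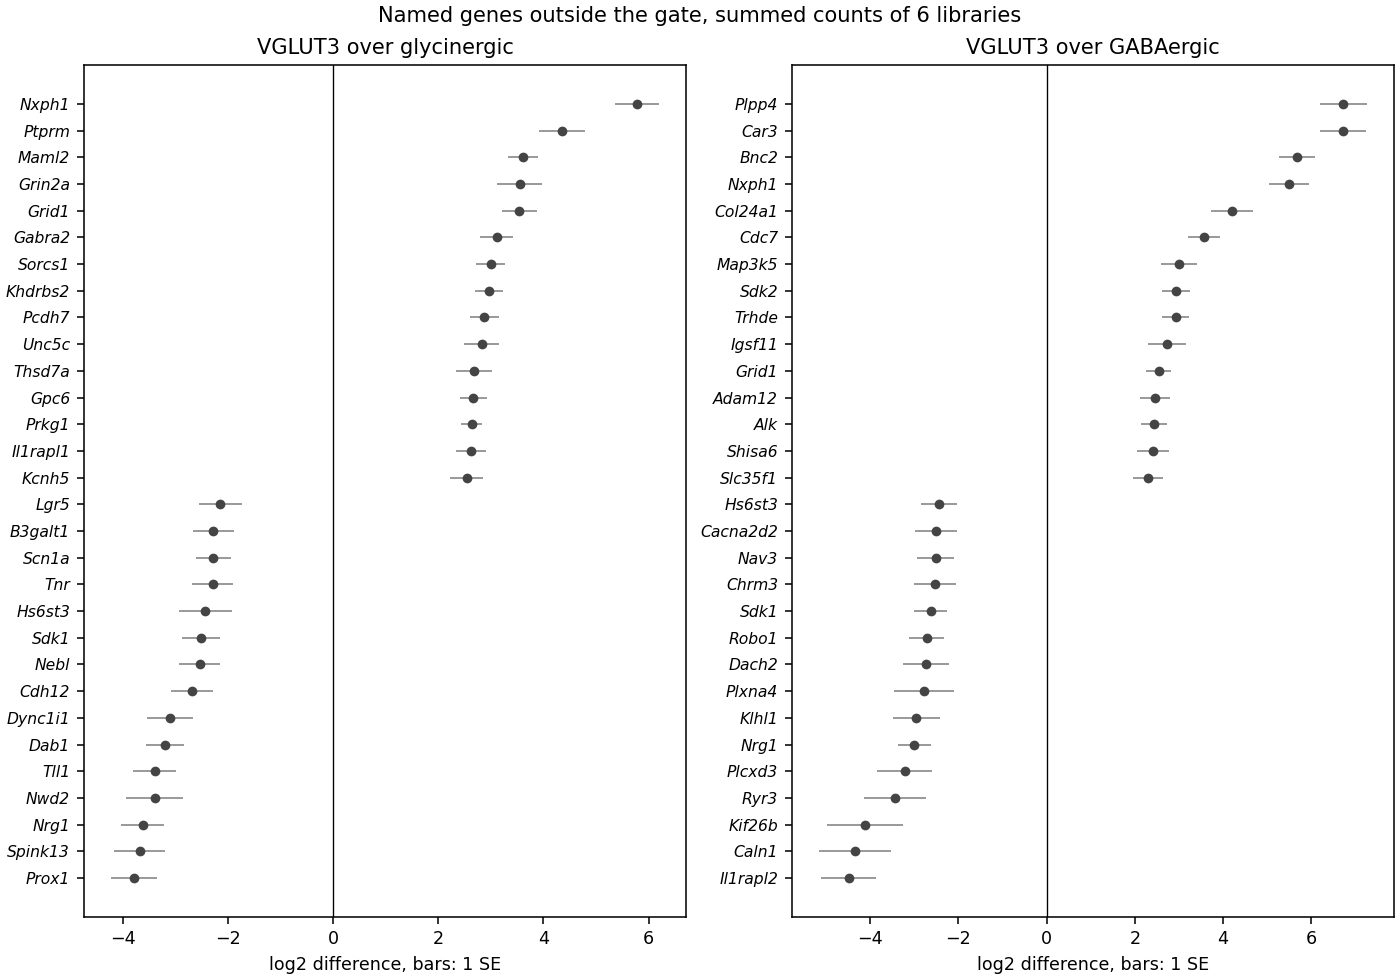
Log2 difference (horizontal axis, points; bars are 1 SE) of the named genes between VGLUT3 nuclei and the glycinergic nuclei (left) or the GABAergic nuclei (right), positive where VGLUT3 nuclei are higher. Nxph1 leads the left panel at 5.78 and Plpp4 the right panel at 6.72, and Nrg1, Sdk1 and Hs6st3 stand among the negative values of both.

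Whether these genes occurred in the same nuclei was described after thinning each nucleus to 1500 UMIs, which left 40 members, 264 glycinergic, 877 GABAergic and 1163 rod-rich nuclei. A VGLUT3 nucleus held a UMI of 6 to 23 of the 28 genes named as higher, with a median of 16. The median was 3 in glycinergic nuclei, 6 in GABAergic nuclei and 0 in rod-rich nuclei, and the highest value in any of these was 14. Because the 28 genes were chosen on the members, these counts are a description. Nxph1 alone was found in 32 of 40 thinned members (80.0%, exact 95% interval 64.4% to 90.9%), against 1.52% of glycinergic, 3.53% of GABAergic and 1.38% of rod-rich nuclei. Without thinning, 1 member, of 3-month replicate 2, held none of the 28 genes.

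**Figure D3:**
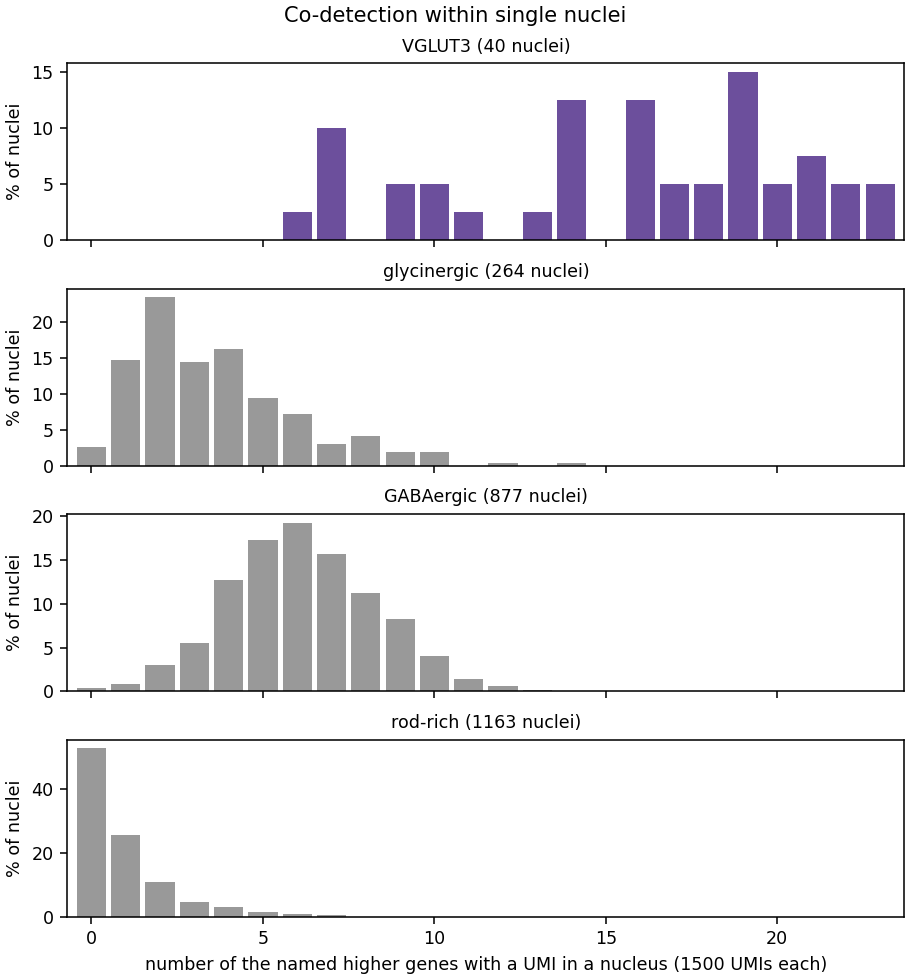
Share of nuclei (vertical axis, %) by how many of the 28 genes named as higher had a UMI (horizontal axis), with each nucleus thinned to 1500 UMIs; panels from the top are VGLUT3, glycinergic, GABAergic and rod-rich nuclei. VGLUT3 nuclei spread from 6 to 23 genes with a median of 16, and the medians of the others are 3, 6 and 0.

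By role, the glutamate receptors came first. Of 18 ionotropic receptor genes outside the rule, 7 could be tested against glycinergic nuclei, 3 were higher in VGLUT3 nuclei (Gria3, Grin2a and Grid1) and none was lower, with a median of 0.10 against -0.10 for all genes. Against GABAergic nuclei 11 could be tested, and Grin2a and Grid1 were higher, with a median of -0.62. The AMPA receptor gene Gria2 stood at 812 ± 335 CPM in VGLUT3 nuclei, 709 CPM in glycinergic nuclei and 1119 CPM in GABAergic nuclei and was called in neither comparison. Of the metabotropic receptors, Grm7 and Grm8, which couple to inhibitory G proteins, were higher than in glycinergic nuclei (log2 differences 0.90 and 1.09), and both members tested there passed. Grm5, which couples to phospholipase C, was lower than in GABAergic nuclei (-1.83).

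Gphn, for gephyrin, the scaffold under glycine and GABA-A receptors, had 1381, 2284 and 2684 CPM in VGLUT3 nuclei of the 18-month libraries and 2787, 2257 and 1505 CPM in those of the 3-month libraries. In glycinergic nuclei it had a lowest, median and highest value of 668, 867 and 1328 CPM and in GABAergic nuclei 882, 1018 and 1218 CPM. All 6 VGLUT3 values were above all values of both comparators, and the log2 differences were 1.15 (SE 0.19, adjusted p = 0.00042) and 0.86 (SE 0.24, adjusted p = 0.014). The glycine receptor subunit gene Glra3 was higher than in GABAergic nuclei (1.04). Of the GABA receptors, Gabra2 was higher than in both comparators, Gabrg3 was lower than in glycinergic nuclei (-1.69) and Gabrb1 was lower than in GABAergic nuclei (-1.96).

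The transmitter genes themselves were thinly counted. Slc32a1, the vesicular transporter for GABA and glycine, had 8 UMIs in 7 members, at 57.7 ± 69.3 CPM in VGLUT3 nuclei, 91.6 ± 32.6 CPM in glycinergic nuclei and 151 ± 64.7 CPM in GABAergic nuclei (SD, n = 6 libraries), and could not be tested against glycinergic nuclei. Against GABAergic nuclei its log2 difference was -1.53 (adjusted p = 0.065), and with no low-count filter it was called there at -2.09 (adjusted p = 0.0065). Slc6a5, for the second glycine transporter, had 4 UMIs. None of the genes tested from the list for glutamate handling and vesicle loading was called, of 3 against glycinergic and 11 against GABAergic nuclei.

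Calls among adhesion genes that guide layers and synaptic partners leaned higher against glycinergic and lower against GABAergic nuclei. Calls over all genes tested leaned the same way. Against glycinergic nuclei 16 of 35 could be tested. Of these, 6 were higher in VGLUT3 nuclei (among them Cntn5, Ptprd, Nlgn1, Robo2 and Unc5c) and 2 lower (Sdk1 and Epha6), with a median of 0.39. Over all genes tested there, 9.2% were called higher and 7.85% lower. Cntn5, for a contactin, had 251 to 2274 CPM in VGLUT3 nuclei and 18.7 to 588 CPM in glycinergic nuclei, with overlap between the classes (log2 difference 2.53, SE 0.25, adjusted p = 2.7e-06). Against GABAergic nuclei 27 could be tested, and Sdk2 and Dscaml1 were higher. In the other direction 10 were lower (Sdk1, Dscam, Cntn3, Lrrtm4, Sema6a, Plxna4, Robo1, Robo2, Unc5d and Epha6), and the median of the 27 was -0.32. Among all genes tested there, 2.69% were called higher and 6.14% lower. Dscaml1, for an adhesion protein of the inner plexiform layer, had 418 to 1687 CPM in VGLUT3 nuclei and 105 to 429 CPM in GABAergic nuclei (log2 difference 1.53, SE 0.28), while its relative Dscam differed by -1.59. Of 19 cadherin genes 5 could be tested against glycinergic nuclei, where Pcdh7 was higher and Cdh12 and Cdh18 were lower (median -0.57). Against GABAergic nuclei 5 of 13 tested were lower, against 6.14% of all genes tested, and none was higher (Cdh12, Cdh18, Cdh20, Pcdh9 and Pcdh17; median -0.52). Pcdh9, a protocadherin gene, had 0 to 2499 CPM in VGLUT3 nuclei and 3074 to 3802 CPM in GABAergic nuclei (log2 difference -2.28, SE 0.34, adjusted p = 3.7e-06).

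Of 52 ion channel genes in 3 lists, 16 could be tested against glycinergic nuclei and 5 were called (31.2%, against 17.1% of all genes tested), 3 higher and 2 lower. Against GABAergic nuclei 32 could be tested and 9 were called (28.1%, against 8.83%), all 9 lower. The calcium channel genes Cacna1a (1.87) and Cacna2d1 (2.02) were higher and Kcnma1, for the BK potassium channel, was lower (-1.97) than in glycinergic nuclei, beside Kcnh5 and Scn1a above. Against GABAergic nuclei, 3 of 7 tested genes of the Kv4 potassium channel complex were lower (Kcnd2, Kcnip1 and Dpp10) and none was higher. Kcnb2 (-1.15), Kcnc2 (-2.11), Kcnma1 (-0.92), Kcnq3 (-1.54) and Scn1a (-1.36) were lower there too, as was Cacna2d2. Of vesicle release genes, Rims1 (0.90) and Unc13c (1.53) were higher than in glycinergic nuclei and Sv2b (1.5) was higher than in GABAergic nuclei. No gene of cytosolic ribosomes, nuclear oxidative phosphorylation, heat shock or the circadian clock was called in either comparison.

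Called genes were long. The median span of the genes called higher was 495 kb against 173 kb for all genes tested in the glycinergic comparison. In the GABAergic one it was 279 kb for the higher and 414 kb for the lower genes, against 85.2 kb. Nxph1 spans 301 kb of chromosome 6 (chr6:8948431-9249032, plus strand, mm10) and Sdk2 291 kb of chromosome 11 (chr11:113776374-114067046, minus strand). Nuclear RNA holds unspliced transcripts, and the part of gene length in these results was not tested.

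The members were not alike in all libraries. Nrg1, low in most members, had a UMI in 8 of the 10 members of 18-month replicate 3, against 3 of 13 and 2 of 16 in 18-month replicates 1 and 2, and 0 of 6, 1 of 6 and 2 of 3 in the 3-month replicates. Robo1 had a UMI in 7 of those 10 members, and 16 of the 17 Dpp10 UMIs and 11 of the 13 Kcnd2 UMIs of all members came from that library. Only 4 of those 10 members had 3 or more Slc17a8 UMIs and only 3 had an Sdk2 UMI. Yet each of them held at least 14 of the 28 genes named as higher, 9 had an Nxph1 UMI and all 10 had a Prkg1 UMI. With 18-month replicate 3 left out, 134 genes were called against glycinergic nuclei, and 315 against GABAergic nuclei.

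The design's own question, the effect of age, was asked first of abundance. Members made up 0.221%, 0.0989% and 0.0691% of kept nuclei in 18-month replicates 1 to 3, against 0.114%, 0.0918% and 0.0434% in the 3-month replicates. The ages overlapped, with means of 0.130% ± 0.0803 at 18 months and 0.0832% ± 0.0363 at 3 months (SD, n = 3 libraries each; two-sided exact permutation test p = 0.5, where 3 against 3 cannot go below 0.1). After thinning to 1500 UMIs before the rule was applied, which left out nuclei with fewer UMIs, the means were 0.144% at 18 months and 0.154% at 3 months. The members changed too: 5 in place of 13 in 18-month replicate 1, and 9 in place of 6 in 3-month replicate 1. Among the nuclei of the 3 amacrine classes, members made up 5.0% ± 2.0 at 18 months and 3.36% ± 1.87 at 3 months (exact permutation p = 0.4). Without 18-month replicate 1 the difference in share of kept nuclei was 0.000845 percentage points. Median UMIs per member averaged 2426 at 18 months and 2423 at 3 months. Within the libraries of 1 Cell Ranger release the difference in share, 18-month minus 3-month, was 0.106 percentage points in release 7.1.0, with 1 library per age, and 0.0164 in release 7.2.0, with 2 per age. In all 3 pairs of libraries with the same replicate number the share of kept nuclei was higher at 18 months (exact paired permutation p = 0.25, the smallest that 3 pairs allow). With 3 to 16 members per library, a difference in the share of VGLUT3 nuclei was not detectable.

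**Figure D4:**
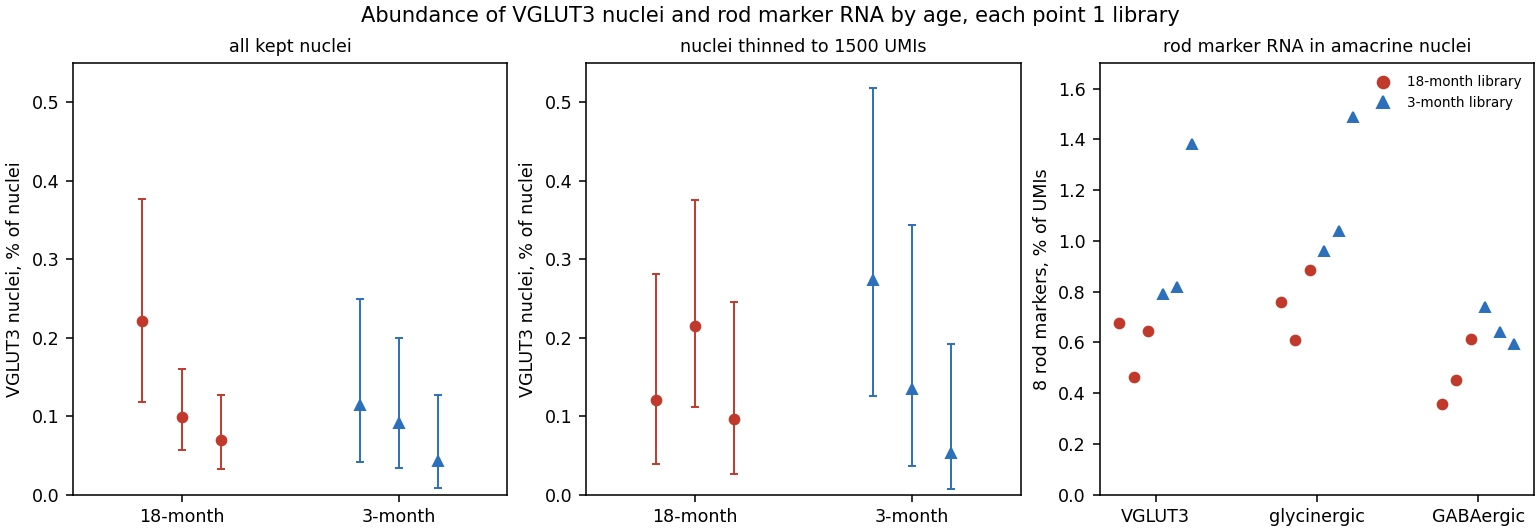
VGLUT3 nuclei as a percent of nuclei in each library, over all kept nuclei (left) and after thinning to 1500 UMIs (middle), with exact 95% binomial intervals that cover counting error only, and rod marker RNA as a percent of UMIs in the 3 amacrine classes (right; circles 18-month, triangles 3-month). The ages overlap in both share panels, while rod marker RNA in VGLUT3 nuclei is 0.464% to 0.675% at 18 months and 0.792% to 1.38% at 3 months. The middle panel holds only nuclei with at least 1500 UMIs.

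Of 194 genes tested in VGLUT3 nuclei for age, edgeR called 0 (0%), 9 genes having an unadjusted p under 0.05. The count in DESeq2 was 0 too, again with 9 such genes. With no low-count filter, over 13139 genes, 5 were called, all higher at 18 months. Among them were Fgf13, for an intracellular fibroblast growth factor relative, with 13, 13 and 17 UMIs in 18-month VGLUT3 nuclei against 0, 0 and 0 UMIs in 3-month ones (adjusted p = 0.0042), and Nrg1 (log2 change 3.90, SE 0.76, adjusted p = 0.0040). The Fgf13 UMIs lay in 7, 2 and 6 members of 18-month replicates 1, 2 and 3. The median log2 change, 18-month over 3-month, was -0.01. The genes with the smallest p whose ages did not overlap are given as values only. Of the 194 genes, 11 higher and 4 lower at 18 months met this naming rule. Even a full separation of 3 against 3 libraries cannot give a two-sided exact permutation p below 0.1. Lsamp, for a neuronal surface protein, had 2028, 4975 and 4674 CPM in 18-month VGLUT3 nuclei, against 1907, 1787 and 836 CPM in 3-month ones (log2 change 1.35, SE 0.39, adjusted p = 0.59). Pde4d, for a cAMP phosphodiesterase, had 626, 905 and 1018 CPM at 18 months against 367, 282 and 251 CPM at 3 months (log2 change 1.45, SE 0.50, adjusted p = 0.59). Cntnap2, for a neuronal adhesion protein, and Ccser1 had log2 changes of 1.0 and 1.55.

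In the other direction, Sorcs1 had 1834, 1628 and 1296 CPM in 18-month VGLUT3 nuclei, against 3521, 4703 and 1839 CPM in 3-month ones (log2 change -1.03, SE 0.36, adjusted p = 0.59). Nxph1 had a log2 change of -0.70 (SE 0.40, adjusted p = 0.78), with all 3 of its 18-month values below all 3 of its 3-month values. Gphn, Prkg1, Khdrbs2 and Grm8 had log2 changes between -0.16 and -0.0026, with SEs of 0.34 to 0.39. None of the 10 adhesion genes or the 6 ionotropic glutamate receptor genes tested was called.

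**Figure D5:**
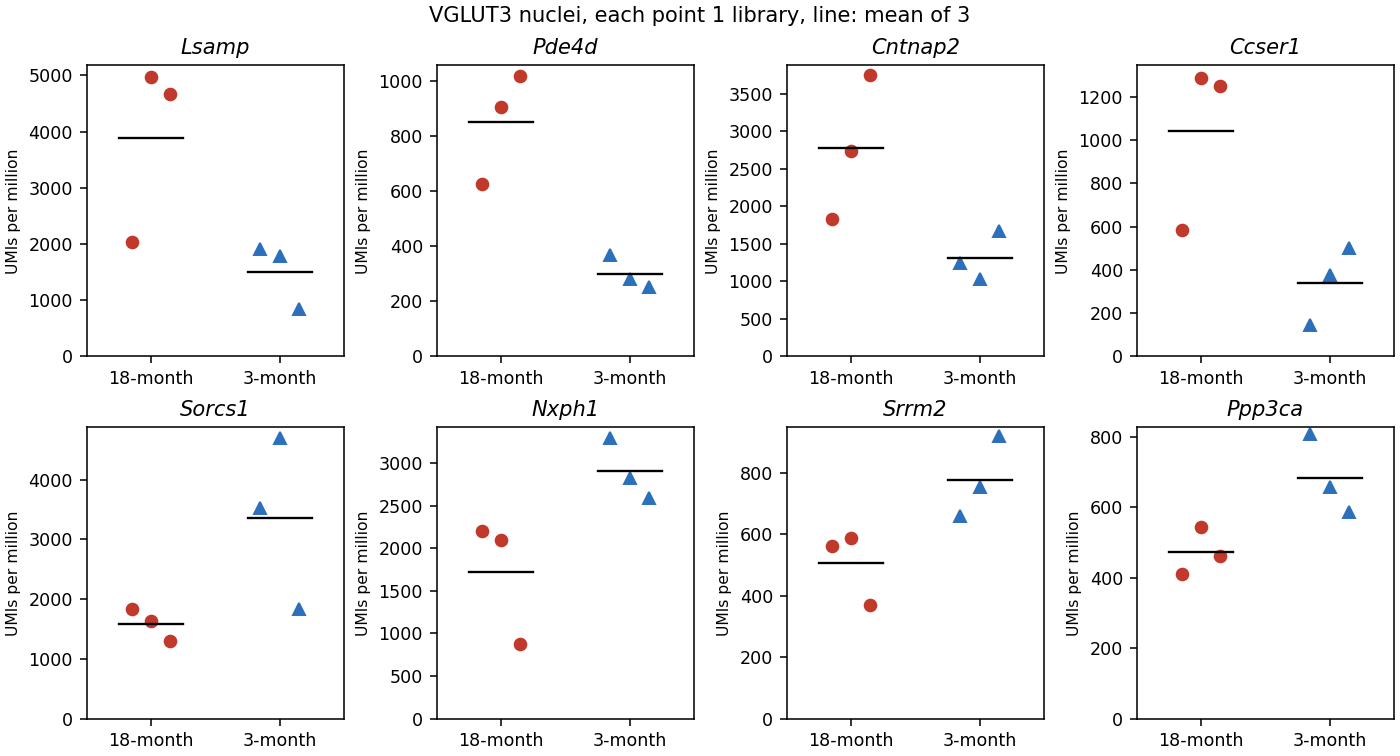
Level in VGLUT3 nuclei (vertical axis, CPM) of 8 genes whose ages did not overlap, 18-month libraries (circles) left and 3-month libraries (triangles) right, with the mean of 3 as a line. Lsamp, Pde4d, Cntnap2 and Ccser1 lie higher and Sorcs1, Nxph1, Srrm2 and Ppp3ca lower at 18 months, and none passed adjustment over the 194 genes tested. They come from 11 higher and 4 lower genes that met the naming rule.

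The rod and mitochondrial lists lay on 1 side of 0 with age, with no gene called. The 7 rod phototransduction genes tested all had log2 changes below 0 (median -0.83). The 5 mitochondrially encoded genes tested also had changes below 0 (median -0.81). Rod marker RNA in glycinergic nuclei ran from 0.608% to 0.885% of UMIs at 18 months, against 0.959% to 1.49% at 3 months, and the part of this RNA in the levels of other genes was not tested.

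Whether age changed VGLUT3 nuclei otherwise than glycinergic nuclei of the same libraries was tested as an interaction. Of 739 genes, 0 (0%) passed in edgeR, with 37 at an unadjusted p under 0.05. DESeq2 was not run for it. The smallest p belonged to Kcnb2, for a potassium channel, with a log2 interaction of 2.86 (SE 0.83, adjusted p = 0.91). Kcnb2 had 11, 44 and 12 UMIs in VGLUT3 nuclei of 18-month replicates 1 to 3, in 3, 5 and 4 members. In the 3-month replicates it had 2, 1 and 1 UMIs. Nrg1 had an interaction of 2.85 (SE 0.96, adjusted p = 0.91). It had 13, 32 and 39 UMIs in VGLUT3 nuclei of 18-month replicates 1 to 3, against 0, 1 and 2 UMIs in those of the 3-month replicates. With no low-count filter, over 18183 genes, both were called, Kcnb2 at 3.36 and Nrg1 at 3.35 (adjusted p = 0.036 each).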

How the data were processed

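The deposited files hold UMI counts per gene and barcode, whole numbers that the authors made from 10x 3′ v3.1 libraries of nuclear RNA with Cell Ranger, per the file headers (7.1.0 in replicate 1 of each age, 7.2.0 elsewhere). The build mm10 and the use of Seurat come from the submitters' processing notes, and the authors' clusters were not used here. Library totals ran from 15905689 to 29340705 UMIs. No barcode held fewer than 500 UMIs, so a lower limit had been applied before deposit.

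Counts were summed per library and class and tested with the quasi-likelihood test of edgeR 4.0.16 (R 4.3.3; TMM, filterByExpr, Benjamini-Hochberg over all genes tested, adjusted p at or below 0.05). Age was the only term in the age fit, library was a block in comparisons of classes, and the genes that chose the nuclei were left out of the calls. The SE of a log2 difference is its size over the root of the F value. DESeq2 1.42.0 was an alternative. Scripts ran under Python 3.11.15, numpy 2.4.6, scipy 1.17.1 and pandas 2.3.3 and were tested on simulated data. Scrublet (scanpy 1.11.5) marked at most 1 nucleus per library, so doublets stayed in, with removal by score as an alternative. Intervals and floors cover counting error only.

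Against a class, the genes named are the 15 largest differences per direction that passed, with at least 50 CPM in the higher class and the same direction in 6 of 6 libraries. For age they are up to 10 per direction with the smallest p and no overlap of the ages, and for the interaction the 6 smallest p per direction. Gene models without a proper name, sex-linked and rod genes were left out. Members of the lists could be named too, and some are not reported here. The members, lists and rules were chosen with earlier results of these data known. GENCODE M21, also on mm10, gave coordinates for 32235 of 32285 gene identifiers.

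Replicate numbers were checked for pairing. The deviations from the age means of VGLUT3 levels correlated at 0.32, 0.18 and 0.31 between same-numbered libraries of the ages, across genes. Between libraries with other numbers they correlated at -0.264 to 0.0059. Deviations from a mean of 3 libraries sum to 0, so these values depend on each other. The labels name no shared litter, batch or day. The pairing is taken from these correlations, that is from the same levels that the fit with a replicate block tested.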

Additional observations from a re-analysis of the deposited data

How the results depend on the processing

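All 30 genes named against glycinergic nuclei kept their direction and call in each alternative in which they could be tested, and so did those against GABAergic nuclei except Plcxd3 with no exclusion UMI allowed (log2 difference -2.24) and Plxna4 without 18-month replicate 1 (-2.07). Counts of calls moved with the setting, also where nearly the same genes were tested. Against glycinergic nuclei they were 75 with no exclusion UMI, 53 with nuclei thinned to 1500 UMIs, 343 with no low-count filter, 34 against nuclei without UMIs of Prox1, Gjd2 or Dab1, and 94 to 134 with 1 library left out. Against GABAergic nuclei they were 77 with no exclusion UMI, 106 thinned, 533 with no low-count filter, 162 in DESeq2, and 130 (without 18-month replicate 1) to 315 (without 18-month replicate 3) with 1 library left out. The cause of these moves was not tested. With no low-count filter 5 genes were called for age, all higher at 18 months (Nrg1, Galntl6, Ncam2, Dcc and Fgf13), Srrm2 and Ppp3ca reversed to 0.086 and 0.12, and 2 genes passed the interaction, Kcnb2 (3.36) and Nrg1 (3.35). With at least 3 Slc17a8 UMIs 1 gene passed it, Pex5l. Galntl6, Ncam2, Dcc and Pex5l are named after their values were seen.

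The difference in share, 18-month minus 3-month, was 0.0464 percentage points and reversed to -0.0097 after thinning before the rule. It lay between 0.000845 and 0.0766 with 1 library left out. The difference in median UMIs per member was 2.5. It was 531.5 within release 7.1.0, with 1 library per age, and -262 within release 7.2.0. With 1 library left out it lay between -359.75 and 406.5. With the replicate number as a block the age fit called 0 genes and the share differed by 0.0464 with an exact permutation p of 0.25, the smallest that 3 pairs allow, so no call on the share was possible under the replicate block. Depth limited which genes could be tested for age: the 15 members of the 3-month libraries had sums of 10632 to 13633 UMIs, and 194 genes passed the filter.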
